A study of Mus musculus with 6 samples.

Results

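Open chromatin at 10 genes of the myeloid lineage was examined in CD8+ T cells, a lymphoid cell type in which these genes are not the defining ones. The genes were the transcription factors Spi1, Cebpa and Cebpb, the growth factor receptor Csf1r, the integrins Itgam and Itgax, and the granule and antimicrobial genes Lyz2, Mpo, S100a8 and S100a9. A peak belonged to a gene if that gene's body was the nearest among 21883 protein-coding genes and lay no more than 100 kb from the peak's summit. By this rule 77 of 134174 merged open regions belonged to the 10 genes. All 10 genes had a peak in at least 1 library.

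Accessibility was measured by ATAC-seq, which reads out where a transposase can cut and tag the DNA of a nucleus. Mouse spleen CD8+ T cells, enriched by removal of the other cells, were activated with antibodies to CD3 (5 µg/mL) and CD28 (1 µg/mL) and kept for 48 h below a porous membrane. Above it grew PD-1-resistant cells of a lung adenocarcinoma, either with a short hairpin RNA knockdown of Fabp7 (Res-shFabp7) or control cells (Res-ctrl), with 3 libraries each, labelled as biological replicates. Only the tumour cells carried the hairpin, and its effect on Fabp7 cannot be read from T cell DNA. Mouse strain and age, and whether each tumour line is 1 clone, are not stated in the labels. Fabp7 encodes a fatty acid binding protein.

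In blood formation, PU.1, the product of Spi1, and the C/EBP factors switch on the genes of monocytes, macrophages and granulocytes, among them the receptor Csf1r and the granule enzymes. T cell progenitors silence Spi1 when they commit to the T lineage. Some of the genes are not restricted to myeloid cells, since activated and memory CD8+ T cells can carry the integrins CD11b (Itgam) and CD11c (Itgax), and C/EBP beta is made in many cell types.

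All of 14 T cell genes had a region called in all 6 libraries, with 7 at Cd3e, 7 at Cd8a, 12 at Cd8b1 and 37 at Bcl11b. So did 63.9% of all protein-coding genes and 6 of 6 genes on a list for CD4 and regulatory T cells. The count alone therefore cannot tell CD8+ T cells from other T cells. Of the T cell promoters with a known position, 10 of 11 held a peak in all 6 libraries. The exception was Bcl11b, whose promoter held no peak in any library despite its many shared regions. Peak lists were longer with Res-shFabp7, at 100243 to 105796 peaks, than with Res-ctrl, at 82153 to 96310. The relative depth, read from the background pileup, was 0.868 to 1.03 with Res-shFabp7 and 0.608 to 1.01 with Res-ctrl, where only replicate 3 reached the Res-shFabp7 range. The part of depth in the counts below was not tested. Counts with equal numbers of peaks are given for the 10 genes together and for some of them singly. For the wider myeloid list and the other marker lists no such counts are given.

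Some promoters of the 10 genes held a peak and others held none, and 6 are shown because they carry this contrast. RefSeq windows of 300 bases, from 250 before the gene start to 50 after it on GRCm38.p6, were found for 8 of the 10 genes, all but Spi1 and Csf1r. The capitals mark matches on either strand to GAGGAA, the core bound by PU.1 and other ETS factors, or to TTNNGCAA, a C/EBP motif. The sequences run 5′ to 3′ on the strand of the gene.
Cebpa (chr7:35119043-35119342, plus strand): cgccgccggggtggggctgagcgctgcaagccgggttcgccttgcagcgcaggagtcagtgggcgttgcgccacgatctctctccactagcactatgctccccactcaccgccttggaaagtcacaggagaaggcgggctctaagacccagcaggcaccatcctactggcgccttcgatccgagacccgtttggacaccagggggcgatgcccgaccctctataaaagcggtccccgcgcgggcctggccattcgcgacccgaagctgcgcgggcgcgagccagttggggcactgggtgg
Itgam (chr7:128062390-128062689, plus strand): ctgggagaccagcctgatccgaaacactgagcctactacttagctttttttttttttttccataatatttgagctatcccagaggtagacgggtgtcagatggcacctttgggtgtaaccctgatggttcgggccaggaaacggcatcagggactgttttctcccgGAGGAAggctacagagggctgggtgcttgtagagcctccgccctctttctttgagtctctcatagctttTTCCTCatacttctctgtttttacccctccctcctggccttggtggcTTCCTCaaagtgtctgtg
Itgax (chr7:128129300-128129599, plus strand): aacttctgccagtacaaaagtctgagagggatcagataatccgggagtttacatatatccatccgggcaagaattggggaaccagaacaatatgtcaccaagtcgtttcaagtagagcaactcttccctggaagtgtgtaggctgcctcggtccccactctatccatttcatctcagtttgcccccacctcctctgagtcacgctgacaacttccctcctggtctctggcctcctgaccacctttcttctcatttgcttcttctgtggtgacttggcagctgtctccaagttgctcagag
Mpo (chr11:87793534-87793833, plus strand): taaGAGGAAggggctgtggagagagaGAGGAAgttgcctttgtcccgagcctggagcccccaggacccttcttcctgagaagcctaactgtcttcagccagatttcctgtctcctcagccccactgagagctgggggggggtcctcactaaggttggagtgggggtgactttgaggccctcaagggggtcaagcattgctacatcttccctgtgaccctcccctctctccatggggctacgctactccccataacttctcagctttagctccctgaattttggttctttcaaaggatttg
S100a8 (chr3:90668821-90669120, plus strand): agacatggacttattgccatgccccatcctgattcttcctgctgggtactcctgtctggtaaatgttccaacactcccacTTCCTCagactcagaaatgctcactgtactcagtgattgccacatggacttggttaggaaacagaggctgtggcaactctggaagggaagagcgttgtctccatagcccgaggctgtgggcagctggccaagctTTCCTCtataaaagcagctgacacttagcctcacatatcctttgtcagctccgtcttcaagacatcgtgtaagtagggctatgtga
S100a9 (chr3:90695672-90695971, minus strand): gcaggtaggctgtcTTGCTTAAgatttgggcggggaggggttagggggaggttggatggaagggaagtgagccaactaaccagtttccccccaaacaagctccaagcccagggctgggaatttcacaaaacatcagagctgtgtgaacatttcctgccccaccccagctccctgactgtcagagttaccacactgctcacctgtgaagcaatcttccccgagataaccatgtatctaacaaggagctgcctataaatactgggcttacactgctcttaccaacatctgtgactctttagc

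Of the 8 promoters, those of Cebpa, Cebpb and Itgam overlapped a peak in all 6 libraries. The Itgax promoter did so in 5 libraries, all but Res-ctrl replicate 2. The promoters of Lyz2, Mpo, S100a8 and S100a9 overlapped a peak in 0 of 6 libraries, so the promoters of the effector genes of granulocytes and macrophages were those without a call. The window of the T cell gene Bcl11b held no peak either, so a window without a call does not show that a gene is closed. Whether these genes were open at other start sites was not tested. Over all 17491 genes with such a window, 48.6% of promoters held a peak in all 6 libraries and 45.4% in none.

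Over all genes, promoters of higher CpG content were more often open, and Itgam and Itgax were open at low CpG content. The ratio of observed to expected CpG dinucleotides was 0.853 at Cebpa and 1.03 at Cebpb. Over all genes, 86.0% of promoters at 0.8 or above were open in all 6 libraries. The ratio was 0.316 at Itgam and 0.275 at Itgax, a range (0.2 to 0.4) in which 16.4% of promoters were open in all 6 libraries and 78.0% in none. Lyz2, Mpo and S100a9 had ratios of 0.0680, 0.0871 and 0.101, and below 0.2 only 4.35% of promoters were open in all 6. S100a8, at 0.214, shared the range of Itgam and Itgax and had no promoter peak. The plot of promoters by CpG content sets the 8 genes beside all genes.

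**Figure D1:**
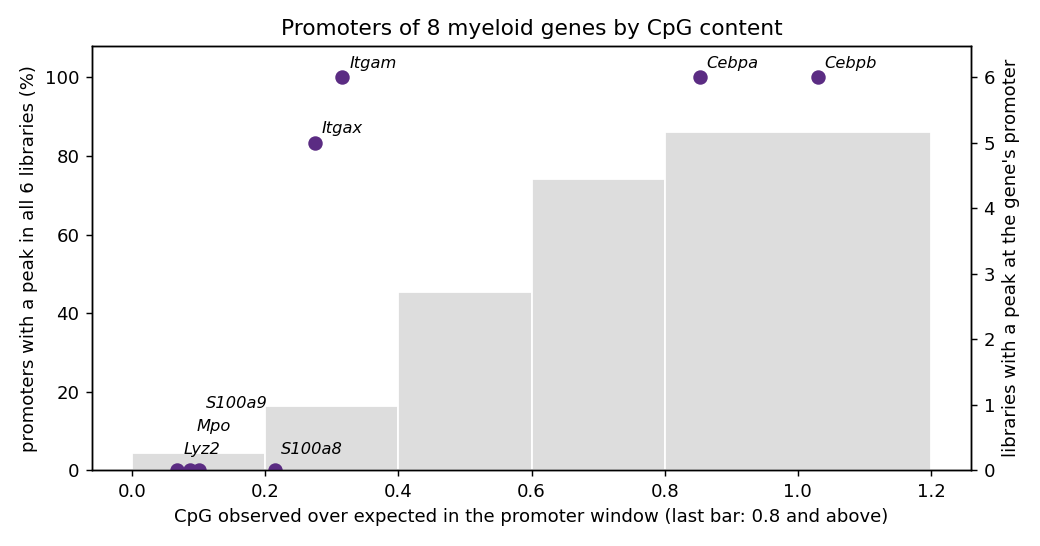
Each point is 1 myeloid gene, with the ratio of observed to expected CpG in its promoter window on the x axis and the number of libraries with a peak there on the right axis. Grey bars, on the left axis, give the percentage of all promoters in each CpG range with a peak in all 6 libraries. Itgam (6 libraries) and Itgax (5 libraries) stand high in a range where 16.4% of promoters were open in all 6.

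Motif matches were found in open promoters and in those without a peak. GAGGAA was found in 3 of the 8 promoters, against 27.5% of all promoters. Itgam had 3 matches, whose first bases lay at -84, -15 and 33 from the gene start (counted from 1 at the start, with no position 0). Mpo had 2, at -247 and -224, and S100a8 had 2, at -170 and -36, and neither promoter held a peak. TTNNGCAA was found in 1 of the 8, at -236 of S100a9, against 10.1% of all promoters. The RUNX motif TGTGGT, also searched, was in 3 of the 8 (at 14 of Itgax, -66 of Lyz2 and -64 of S100a9), against 15.1% of all promoters. The AP-1 motif TGANTCA was in 1 (at -56 of Itgax), against 7.08%. None of these matches overlapped a match to another motif. A match is a run of letters and not a measured binding site.

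Open regions were densest around Itgam, Spi1, Itgax and Cebpb. The stretch nearest to a gene held 29.9 regions per 100 kb at Itgam, 22.2 at Spi1, 20.9 at Itgax and 20 at Cebpb, against 6.68 per 100 kb over all genes. Counting only regions called in all 6 libraries, the values were 10.4 at Cebpb, 10.3 at Itgam, 9.87 at Spi1 and 5.22 at Itgax, against 2.85 over all genes. The values over all genes pool the stretches of all genes, so long stretches weigh more in them. By number per gene the 10 genes were closer to the rest. Their median was 3.5 regions, against 3 over all genes, and 1.5 regions called in all 6 libraries, against 1. Csf1r had 2.79 regions per 100 kb, Lyz2 3.71, S100a8 5.64, Cebpa 6.10, Mpo 6.43 and S100a9 10.0. The stretches differ in length, between 15.6 kb at Mpo and 115 kb at Cebpb, and the values of the sparse genes rest on 1 to 4 regions each. As the libraries are bulk, a few myeloid cells with open DNA and many T cells with weakly open DNA cannot be told apart.

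**Figure D2:**
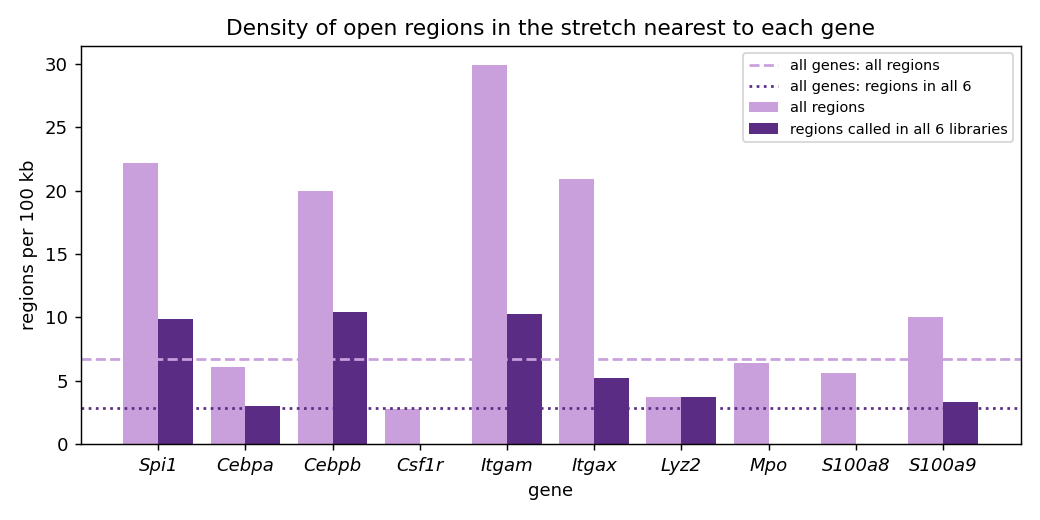
Bars give the regions per 100 kb of the stretch nearest to each gene, for all regions (light) and for regions called in all 6 libraries (dark), and the horizontal lines give the same over all genes (6.68 and 2.85). Itgam, Spi1, Itgax, Cebpb and S100a9 exceed both lines.

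Spi1 (chromosome 2, 91082374 to 91115759), which encodes PU.1, had 9 regions, of which 4 were called in all 6 libraries. The strongest, meaning the one whose lowest −log10 q over the libraries was highest, lay inside the gene, from 91101372 to 91101710. The authors' fold over background, their own value for each peak, was 34.9, 30 and 35.4 with Res-shFabp7 and 33.6, 29.5 and 32.2 with Res-ctrl. These values overlapped, and the peak stood at the 89.8th to 93.4th percentile of −log10 q in the lists. A second region called in all 6, from 91082962 to 91083686, had folds of 15.2, 20.7 and 16.0 with Res-shFabp7 and 19.0, 17.4 and 16.8 with Res-ctrl. The other 2 were weaker, at 5.21 to 7.50. One weak region inside the gene, from 91088436 to 91088558, was called only with Res-shFabp7, with folds of 3.59, 3.70 and 5.43. Another, from 91082630 to 91082728, had peaks in Res-ctrl replicates 1 and 2, at 4.57 and 3.72, and in no other library.

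Cebpa (chromosome 7, 35119293 to 35121928), a factor of granulocyte commitment, had open regions only at and shortly before its promoter. All 4 of its regions had their summits before the gene and within 1000 bp of it. The region over the promoter, from 35118910 to 35119472, had folds of 8.42, 13.1 and 9.51 with Res-shFabp7 and 8.04, 8.19 and 11.4 with Res-ctrl, and the groups overlapped. A region with its summit 709 bp before the gene had folds of 5.99, 6.35 and 5.64 with Res-shFabp7 and 7.54, 7.14 and 7.93 with Res-ctrl. It was weaker in each Res-shFabp7 library. No further region was called across a stretch of 65.5 kb nearest to Cebpa.

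Cebpb (chromosome 2, 167688915 to 167690432), a factor that inflammatory signals induce, had 23 regions, and 12 were called in all 6 libraries. Only 1 region overlapped the gene with its summit, a long one from 167688612 to 167690213 that took in the promoter and most of this short gene, with its summit 898 bp past the gene start. Its folds were 9.65, 9.87 and 9.48 with Res-shFabp7 and 8.92, 11.3 and 10.5 with Res-ctrl. The strongest region by the same measure, 7633 bp beyond the gene from 167697829 to 167698460, had folds of 29.6, 29.2 and 31.0 with Res-shFabp7 and 28.7, 29.6 and 30.6 with Res-ctrl. It stood at the 96.0th to 97.3rd percentile of the lists. On the other side, 8848 bp before the gene, another region had folds of 33.0, 33.5 and 27.4 with Res-shFabp7 and 36.6, 28.0 and 33.9 with Res-ctrl. Both sets overlapped between groups, and the open sites of Cebpb reached as far as 87554 bp beyond the gene with calls in all 6 libraries. The rule assigns these far regions by distance alone. A region 85069 bp beyond the gene had folds of 17.0, 18.1 and 15.5 with Res-shFabp7 and 20.3, 19.9 and 18.4 with Res-ctrl, weaker in each Res-shFabp7 library.

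Csf1r (chromosome 18, 61105572 to 61131139), the receptor for macrophage colony-stimulating factor, was nearly without called peaks. Its only region lay inside the gene, from 61127713 to 61127810. It was called in Res-shFabp7 replicates 2 and 3, with folds of 5.35 and 5.61, and in no Res-ctrl library.

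Itgam (chromosome 7, 128062640 to 128118491), the alpha chain of the CD11b integrin, had more regions than any other of the 10 genes, 26, of which 9 were called in all 6 libraries. The region over its promoter, from 128062539 to 128062809 with the summit 13 bp past the gene start, had folds of 15.5, 15.3 and 15.6 with Res-shFabp7 and 14.9, 15.4 and 15.4 with Res-ctrl. These 6 values lay close together and the groups overlapped. The strongest region by the same measure, 11828 bp before the gene from 128050730 to 128051121, had folds of 21.4, 20.1 and 23.0 with Res-shFabp7 and 19.2, 19.8 and 23.1 with Res-ctrl. Inside the gene, a region from 128080086 to 128080635 reached 20, 23.1 and 21.4 with Res-shFabp7 and 20.2, 16.1 and 21.2 with Res-ctrl. Both again overlapped. A further region inside the gene, from 128089224 to 128089622, had folds of 16.8, 19.8 and 19.4 with Res-shFabp7 and 12.3, 11.8 and 16.4 with Res-ctrl, higher in each Res-shFabp7 library. The remaining 17 Itgam regions were called in 1 to 5 libraries each.

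Itgax (chromosome 7, 128129526 to 128150657), the alpha chain of the CD11c integrin and the next gene after Itgam, had 8 regions and 2 called in all 6 libraries. The stronger of these, inside the gene from 128136922 to 128137301, had folds of 11.7, 11.3 and 10.5 with Res-shFabp7 and 12.5, 11.6 and 14.1 with Res-ctrl. The promoter region, from 128129386 to 128129656, had folds of 6.21, 5.99 and 6.43 with Res-shFabp7 and of 5.15 and 7.51 with Res-ctrl replicates 1 and 3. Neither region separated the groups, and both were weaker than the strongest Itgam regions.

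Among the granule and antimicrobial genes, open regions were few and lay away from the promoters. Lyz2 (chromosome 10, 117277541 to 117282272), the macrophage lysozyme, had 1 region, called in all 6 libraries, 1648 bp beyond the end of the gene from 117275783 to 117275959. Its folds were 9.38, 8.56 and 6.64 with Res-shFabp7 and 6.44, 4.35 and 13.5 with Res-ctrl, and Res-ctrl replicates 2 and 3 marked the lowest and the highest value. Mpo (chromosome 11, 87793784 to 87804412), the myeloperoxidase of granulocytes, had 1 region, called only with Res-shFabp7. It lay inside the gene 8258 bp past the start, from 87801955 to 87802169, with folds of 6.91, 4.82 and 6.64.

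S100a8 and S100a9, neighbours on chromosome 3, encode the subunits of calprotectin, a calcium- and metal-binding protein of neutrophils. S100a8 (90669071 to 90670034) had 1 region, 4695 bp before the gene, with folds of 5.35 and 5.61 in Res-shFabp7 replicates 2 and 3 and 4.98 in Res-ctrl replicate 3. S100a9 (90692630 to 90695721) had 3 regions, 13006 to 14512 bp before the gene. One, from 90710148 to 90710385, was called in all 6 libraries, with folds of 13.3, 10.7 and 13.5 with Res-shFabp7 and 6.44, 5.60 and 9.97 with Res-ctrl. Every Res-shFabp7 value exceeded every Res-ctrl value there. A neighbouring region from 90708670 to 90708833 was called only with Res-shFabp7, with folds of 7.31, 6.42 and 5.98. The third had a peak in Res-shFabp7 replicate 3 alone.

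**Figure D3:**
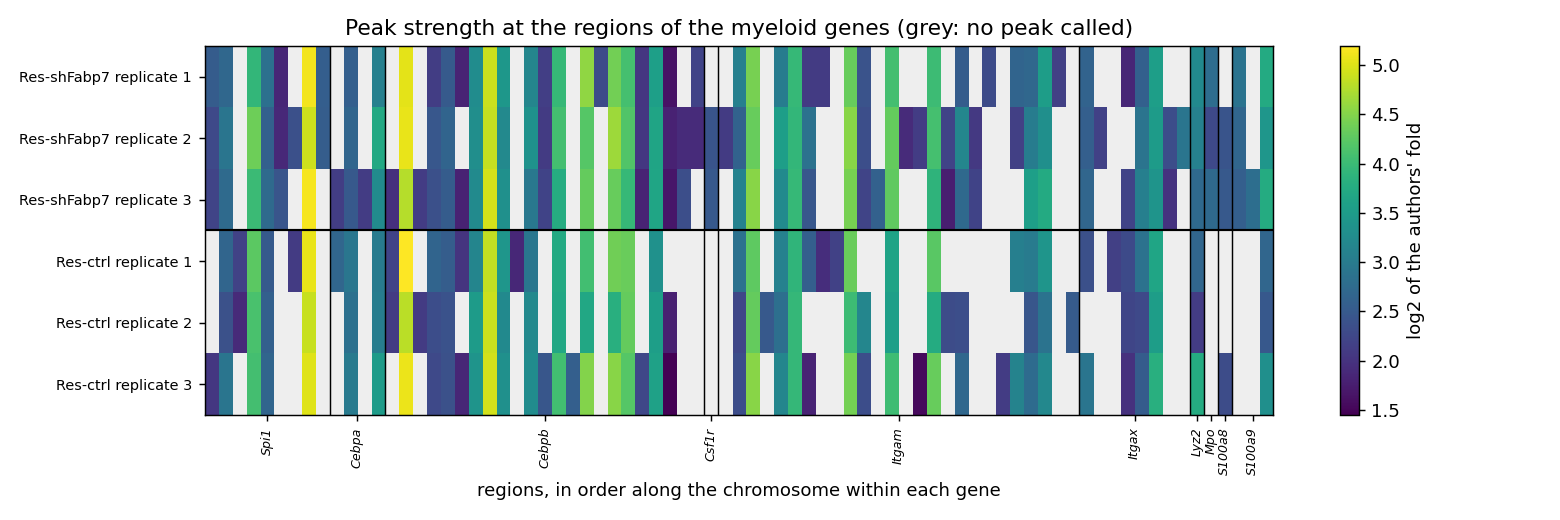
Each column is 1 of the 77 regions, grouped by gene, and each row is 1 library, with Res-shFabp7 above Res-ctrl. Colour gives log2 of the authors' fold and grey means no peak was called. The strong regions of Spi1, Cebpb and Itgam run through all 6 rows, with folds up to 36.6.

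A strong peak is more readily called in every list, so strength and the number of libraries are not independent here. The 31 regions called in all 6 had a median fold of 10.3 (range of the region medians 5.11 to 33.2). The 43 regions with neither pattern had a median of 4.53 (3.19 to 7.49), and the 3 regions called only with Res-shFabp7 had medians of 3.70, 6.42 and 6.64, so the sets overlapped. In how many libraries a region was called, the 10 genes were close to the rest. Of their regions 40.3% were called in all 6 libraries and 22.1% in 1, against 42.6% and 23.1% of the 127541 regions near any gene. Their regions lay inside a gene body in 44.2% of cases, against 62.5% of all regions.

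**Figure D4:**
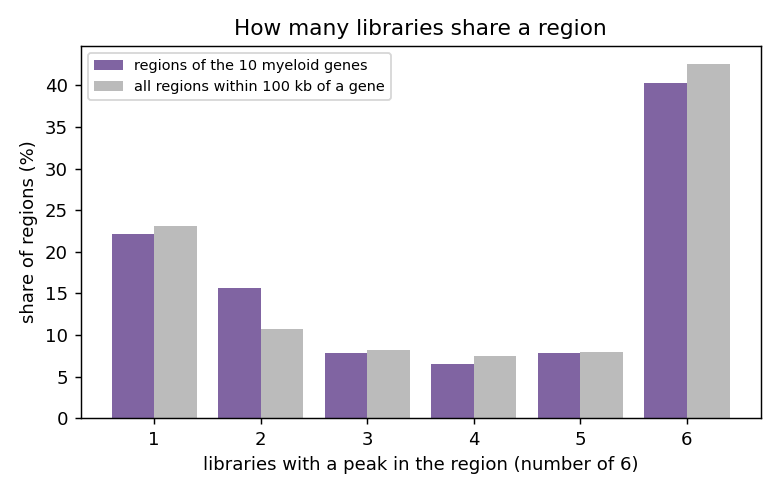
Bars give the share of regions called in 1 to 6 libraries, for the 77 regions of the myeloid genes (purple) and for all regions within 100 kb of a gene (grey). Both sets peak at 6 libraries (40.3% and 42.6%).

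The comparison between groups asked whether these genes were open to a different extent in T cells cultured with Res-shFabp7. Of the 77 regions, 3 (3.9%) had a peak in 3 of 3 Res-shFabp7 libraries and in 0 of 3 Res-ctrl libraries, and 0 the reverse. Over all regions near a gene 2.23% had peaks in the Res-shFabp7 libraries alone and 0.16% in the Res-ctrl libraries alone. The 3 regions were those at Spi1, Mpo and S100a9 given above. An exact permutation test of 1 region cannot go below p = 0.1 with 3 against 3 libraries. With the 82153 strongest peaks kept in every list, the length of the shortest, 1 region was called only with Res-shFabp7, that of S100a9. The share of all regions so called at equal list lengths is not given here. The Mpo region then had a peak in Res-shFabp7 replicates 1 and 3, and the Spi1 region in 1 Res-shFabp7 library. The count of 3 was 7 without Res-shFabp7 replicate 1, 5 without Res-shFabp7 replicate 3 and 6 without Res-ctrl replicate 3. In 3 further regions, 1 at Spi1 and 2 at Cebpb, all Res-shFabp7 libraries and of Res-ctrl only replicate 3, the deepest of its group, had a peak. Over all regions that pattern made up 2.86%.

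By number of peaks, the 10 genes together had 54, 61 and 60 peaks with Res-shFabp7 and 47, 46 and 48 with Res-ctrl. The means were 58.3 ± 3.79 and 47.0 ± 1.00 (SD, n = 3 each), and the groups did not overlap. Per 1000 peaks of the list, the values were 0.516, 0.577 and 0.599 with Res-shFabp7 and 0.554, 0.560 and 0.498 with Res-ctrl, and the groups overlapped. Cut to equal list lengths, the genes had 43, 44 and 46 with Res-shFabp7 and 46, 46 and 41 peaks with Res-ctrl, and both means were 44.3. No test was made of these sums, since the genes were chosen with earlier results known.

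For single genes, the number of peaks was tested over all 16421 genes with a peak. Mpo had 1, 1 and 1 peaks with Res-shFabp7 and 0, 0 and 0 with Res-ctrl. S100a9 had 2, 2 and 3 peaks with Res-shFabp7 and 1, 1 and 1 with Res-ctrl. At both genes the libraries of the groups were fully apart, with p = 0.1 in an exact permutation test (two-sided), the lowest value this design can reach, and p = 0.848 after Benjamini-Hochberg adjustment. This held for 2 of the 10 genes in the direction of more peaks with Res-shFabp7 and for 0 in the other, against 11.3% and 0.536% of all genes. At the other 8 genes the groups overlapped or were equal. Itgam had 16, 21 and 17 peaks with Res-shFabp7 and 14, 15 and 16 with Res-ctrl (exact permutation p = 0.2). Cebpb had 21, 18 and 20 with Res-shFabp7 and 17, 18 and 18 with Res-ctrl, and Spi1 had 7, 8 and 6 with Res-shFabp7 and 6, 6 and 5 with Res-ctrl (exact permutation p = 0.3 for both). Lyz2 had 1 peak in every library. With equal numbers of peaks Mpo had 1, 0 and 1 with Res-shFabp7 and 0, 0 and 0 with Res-ctrl, so the groups overlapped, while S100a9 kept its counts in all 6 libraries. Cebpb then had 16, 15 and 15 with Res-shFabp7 and 17, 18 and 17 with Res-ctrl, so the direction turned round and the groups were fully apart. The direction turned round at Itgam too, at 12, 12 and 13 with Res-shFabp7 and 13, 15 and 12 with Res-ctrl, where the groups overlapped. How many of all genes were fully apart at equal list lengths is not given here. S100a9 and Cebpb therefore have no such share to be read beside.

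**Figure D5:**
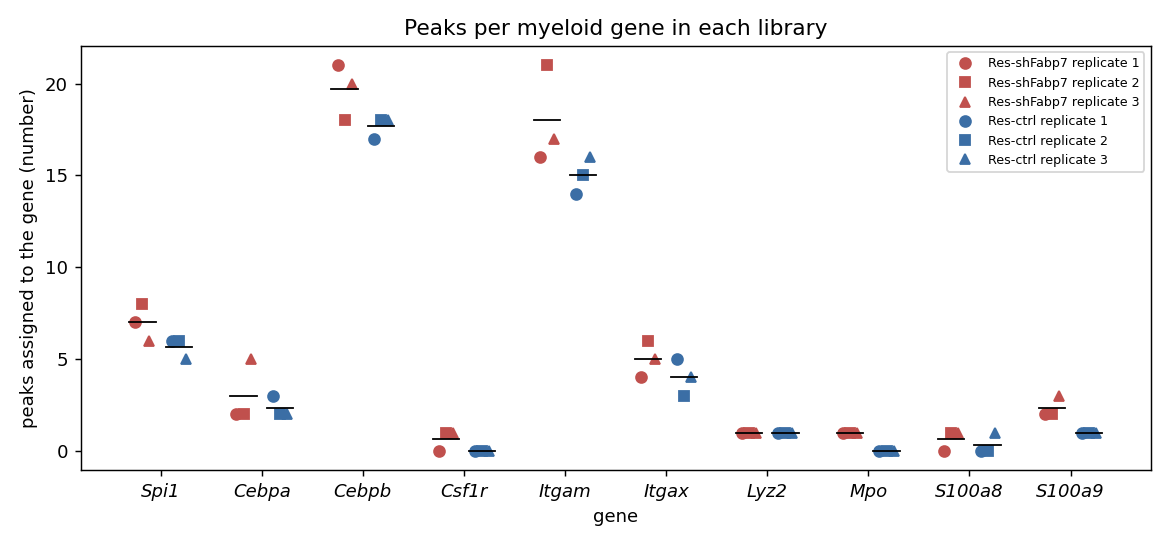
Points give the number of peaks assigned to each gene in each library, red for Res-shFabp7 and blue for Res-ctrl, with a marker shape for the replicate number and a line at the group mean. The groups are apart at Mpo (1, 1 and 1 with Res-shFabp7, 0 in each Res-ctrl library) and S100a9.

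Peak strength gave no single direction over the 31 regions called in all 6 libraries. The authors' fold was higher in each Res-shFabp7 library at 2 of them (6.45%), the Itgam and S100a9 regions above, and lower at 2 (6.45%), the Cebpa and Cebpb regions above. Over all 54390 such regions near a gene the shares were 12.8% and 5.41%. The fold is a peak caller's value within 1 list and was not tested between lists. It was read as a ratio with 1 added to both summit and background. By that formula the same enrichment gives a smaller fold in a shallower list. The part of depth in the folds was not tested.

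A wider list of 48 other myeloid genes also held genes with many shared regions and genes with no peak. Of these, 31 had a region called in all 6 libraries, as did 7 of the first 10 genes and 63.9% of all protein-coding genes. The 3 with the most such regions were Irf8, a transcription factor of monocytes and dendritic cells, Fcgr1, an Fc receptor, and Zbtb46, a factor of dendritic cells, with 11 each. No peak in any library was assigned to 6 of them, Elane, Camp, Ngp and Retnlg, which neutrophils make, the scavenger receptor Msr1 and the lectin Cd209a. Of 37 promoters with a known position, 7 held a peak in all 6 libraries and 27 in none, against 48.6% and 45.4% of all promoters. Of its 318 regions, 9 (2.83%) had peaks in the Res-shFabp7 libraries alone and 1 (0.314%) was called in Res-ctrl libraries alone, near the 2.23% and 0.16% of all regions.

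Those 9 Res-shFabp7 regions were 2 each at Ly6g, a neutrophil surface protein, and at Zbtb46, and 1 each at Ctsg, Cybb, Fcgr1, Klf4 and Ltf. The regions of Zbtb46, Cybb and Ltf lay inside the gene. Those of Ly6g lay side by side, 23286 and 23496 bp from the gene, and that of Klf4 lay 32033 bp away. The Fcgr1 region lay 7513 bp away, and its lowest −log10 q was 1.78. Ctsg encodes cathepsin G and Ltf lactoferrin, both of neutrophil granules, and Cybb a subunit of the phagocyte oxidase. The region near Ctsg lay 784 bp away, and its folds were 6.42, 4.82 and 5.61. That inside Cybb had folds of 5.43, 5.89 and 5.61, and the stronger of those near Ly6g had 6.91, 6.96 and 6.12. The single region called only with Res-ctrl was at Cx3cr1, a chemokine receptor of monocytes and of effector T cells. The summed level of the wider list was 2.29 to 2.46 per 1000 peaks with Res-shFabp7 and 2.24 to 2.47 with Res-ctrl, and the groups overlapped. The part of myeloid cells in any of these calls was not tested.

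Of 6 marker lists of T cells and other non-myeloid cells, 4 had summed levels whose ranges did not overlap between the groups, with no test made. How often other gene lists do so is not given here, so this count has no share to be read beside. Per 1000 peaks, the 14 T cell genes had 2.89 to 3.17 peaks with Res-shFabp7 and 3.26 to 3.36 with Res-ctrl. The 10 B cell genes had 0.246 to 0.296 with Res-shFabp7 and 0.183 to 0.236 with Res-ctrl. Of their 38 regions, 3 (7.89%) were called only with Res-shFabp7, against 2.23% of all regions near a gene. Of the 3, 2 were at Ebf1, a B cell transcription factor, and 1 was at Blnk. Of the B cell genes 8 had a region and 7 had one in all 6 libraries. Ebf1 had 11, 9 and 13 peaks with Res-shFabp7 and 6, 5 and 8 with Res-ctrl. No peak in any library fell to Ms4a1 (CD20) or Vpreb1. The 8 epithelial genes had 0.190 to 0.198 with Res-shFabp7 and 0.145 to 0.183 with Res-ctrl. Of their 22 regions, 2 (9.09%) were called only with Res-shFabp7, against the same 2.23%. Both were at Epcam, an adhesion protein of epithelial cells, which had 9, 11 and 10 peaks with Res-shFabp7 and 6, 7 and 5 with Res-ctrl. Epcam had 4 regions in all 6 libraries, Cdh1 had 6 and Muc1 had 2, while Krt8, Krt19 and Sftpc had no peak. The CD4 and regulatory T cell genes had 0.907 to 1.00 with Res-shFabp7 and 1.01 to 1.11 with Res-ctrl. The ranges overlapped for the NK cell genes, at 0.482 to 0.529 with Res-shFabp7 and 0.509 to 0.578 with Res-ctrl. They also overlapped for the erythroid and megakaryocyte genes, at 0.132 to 0.190 with Res-shFabp7 and 0.158 to 0.189 with Res-ctrl, and for both myeloid lists. The share of regions called only with Res-shFabp7 was 1.48% for the T cell genes and 0.794% for the CD4 and regulatory T cell genes. It was 0% for the NK cell genes and 0% for the erythroid and megakaryocyte genes. The parts of depth, list length and cell composition in these levels and in the myeloid counts were not tested.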

How the data were processed

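MACS2 2.2.7.1, Bowtie 1.1.2, cutadapt 2.8 and Trim Galore 0.6.5 and the build mm10 are named in the submitters' processing notes, with no roles. How transposase shift and duplicates were handled is not stated there. Every library has its own deposited peak list, with q under 0.05. Per the file headers, each peak has p-values and q-values as −log10, the pileup (coverage signal at the summit) and the fold, a ratio of the summit to local background. The number of reads behind each list is not in the files.

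Starts and summits, taken to count from 0, are given from 1. Background pileup was recovered from pileup and fold, with the fold taken as a ratio with 1 added to both of its terms. The most frequent value of this background is the relative depth. Peaks were merged where they overlapped by at least 1 bp, and a region took the gene of its strongest summit, from RefSeq GRCm38.p6, whose primary chromosomes are those of mm10. The stretch nearest to a gene was measured in steps of 10 bp. The first listed promoter window of each gene was used. Peak numbers per gene were compared by two-sided exact permutation with Benjamini-Hochberg adjustment, in Python 3.11.15 with pandas 2.3.3, after a check on simulated data. The genes, lists and rules were chosen with earlier results of these data known. All 10 genes are named, as are regions of 1 group only, the strongest shared region per gene and the promoter region. Further regions, among them those whose folds separate the groups, were named after their values were seen. Of the wider list, genes with a region of 1 group only and the 3 with most shared regions are named, and those with no peak were named after their values were seen. So were the genes named from the B cell and epithelial lists. Lists of B cell, NK cell, CD4 T cell, erythroid and epithelial markers had 7 of 10, 6 of 8, 6 of 6, 5 of 8 and 3 of 8 genes with a region in all 6 libraries. Alternatives were a q of 0.01 or 0.001, equal numbers of peaks, a gene distance of 20 kb or 0, ties left out, a merging gap of 200 bp, 50% cover, midpoints, 2 of 3 libraries, leaving out each library, a replicate block and, added after seeing the data, Res-ctrl replicate 3 alone.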

Additional observations from a re-analysis of the deposited data

How the results depend on the processing

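The count of 3 regions called only with Res-shFabp7 was 2 or 3 under a stricter q, a gene distance of 20 kb, gene bodies only, ties left out, merging across 200 bp, 50% cover and midpoints. It was 1 with equal numbers of peaks, 9 where 2 of 3 libraries sufficed (1 for Res-ctrl) and 3 to 7 when a library was left out (0 to 1 for Res-ctrl). Regions called in all libraries numbered 10 in place of 31 with gene bodies only and 31 to 34 when a library was left out. The difference in peaks at the 10 genes, Res-shFabp7 minus Res-ctrl, was 11.3, and 0 with equal numbers of peaks, 7.67 within 20 kb, 4.67 inside gene bodies and 10.0 to 13.5 without 1 library. Per 1000 peaks it was 0.0264, with 0.00351 within 20 kb, 0.00944 inside gene bodies and 0.00689 to 0.0501 without 1 library. Against Res-ctrl replicate 3 alone, a setting chosen after seeing the data, it was 0.0654, and the Res-ctrl-only count was 2. For Cebpa the difference turned to -0.333 with equal numbers of peaks, inside the gene and without Res-shFabp7 replicate 3 (-0.333 to 1.17 without 1 library). For Cebpb it turned to -2 with equal numbers, -1.67 within 20 kb and -0.667 inside the gene, for Itgam to -1 with equal numbers and for S100a8 to -0.333 against Res-ctrl replicate 3 alone. Gene bodies only and 2 of 3 libraries change which regions can count, and equal numbers removes the weakest peaks of the longer lists. The cause of the other changes was not tested.

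Same-numbered libraries did not deviate together (Pearson r across 5707 genes of -0.01, -0.022 and -0.032 for the 3 pairs). Pairs of unlike number had r of -0.014 to 0.035. The labels do not say that replicate numbers pair libraries, and these values cannot decide it. With a replicate block, regions in which all 3 pairs differed the same way numbered 3 and 0, and with at least 2 of 3 pairs and none opposite they numbered 12 and 1, for Res-shFabp7 and for Res-ctrl. The block left the mean differences at 11.3 peaks and 0.0264 per 1000, and for single genes the exact sign-flip permutation p cannot go below 0.25.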
